A study of Mus musculus with 6 samples.

Results

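The heptad is a set of 7 transcription factor genes of blood stem and progenitor cells: Gata2, Tal1, Erg, Runx1, Lmo2, Lyl1 and Fli1. Each was taken from the deposited table through probe sets whose platform annotation gives exactly 1 symbol, and where a gene has several the one with the strongest average signal is kept. All 7 had 1 such probe set, among 22180 genes with a probe set of their own, and all 7 were among the 16635 genes that passed a filter on low signal and were tested.

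The data were 6 microarrays of cells sorted as long-term haematopoietic stem cells (LT-HSC) from C57/BL6 mouse bone marrow 4 months after a bone marrow transplant. Each array held about 5 ng of RNA from a pool of animals. In 3 arrays the pools came from control animals and in 3 from animals expressing NPMc+, the mutant nucleophosmin of acute myeloid leukaemia that is found in the cytoplasm. All 6 pools shared the strain, the tissue and the transplant. The labels give neither the age of the animals nor the promoter, allele or donor cells through which NPMc+ was expressed. Both groups carry the replicate numbers 1, 2 and 3, and same-numbered arrays are called pairs here.

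The 7 proteins bind together at many enhancers of blood stem and progenitor cells, including enhancers of their own genes, and so form a network in which each factor can help to keep the others expressed. Gata2 is a zinc finger factor that binds GATA sites. Tal1 and Lyl1 are related basic helix-loop-helix proteins that bind E-box sites with an E protein partner, and Lmo2 is a LIM protein that bridges them to GATA factors without binding DNA. Erg and Fli1 are closely related ETS factors, and Runx1 binds DNA with its partner Cbfb. Several of the 7 also act outside stem cells, in megakaryocytes, in erythroid and mast cells or in the endothelium.

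RefSeq promoter sequences (GRCm38.p6) were found for 5 of the 7 genes, with 10 start sites in all. Those shown belong to Erg, Lyl1 and Gata2, whose limma p before adjustment was under 0.05. No sequence was found for Fli1, the other gene under 0.05, or for Lmo2. Promoters are shown because heptad proteins are known to bind at enhancers of their own genes, but binding was not measured here. Each is the 250 bases before a start site, in the direction of the gene; for Erg the start site with the most motif matches is shown, and for Gata2 the first of 2, neither of which held a match. Capitals mark matches on either strand to 4 kinds of motif. The GATA motif was searched as AGATAA and, as a separate form of the same motif, as TGATAA. The ETS motif was searched on each strand as GGAAG, its core with 1 more base, so cores followed by another base were not marked or counted. The RUNX motif was searched in both of its usual forms, which are TGTGGT and, as the other of the pair, TGCGGT. The E-box was searched as CAGCTG and in the form preferred by Tal1 with its E protein partner, CAGATG. No matches overlapped.
Erg, chr16:95459349-95459598, minus strand: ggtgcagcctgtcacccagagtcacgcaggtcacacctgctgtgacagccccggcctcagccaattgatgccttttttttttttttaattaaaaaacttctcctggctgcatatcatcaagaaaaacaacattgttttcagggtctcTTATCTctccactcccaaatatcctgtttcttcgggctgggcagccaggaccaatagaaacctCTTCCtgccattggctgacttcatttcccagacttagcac
Lyl1, chr8:84701207-84701456, plus strand: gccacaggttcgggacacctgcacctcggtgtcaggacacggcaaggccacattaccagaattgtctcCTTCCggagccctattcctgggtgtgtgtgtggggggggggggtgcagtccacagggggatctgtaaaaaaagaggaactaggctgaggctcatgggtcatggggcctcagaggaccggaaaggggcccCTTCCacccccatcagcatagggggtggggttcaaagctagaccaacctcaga
Gata2, chr6:88193641-88193890, plus strand: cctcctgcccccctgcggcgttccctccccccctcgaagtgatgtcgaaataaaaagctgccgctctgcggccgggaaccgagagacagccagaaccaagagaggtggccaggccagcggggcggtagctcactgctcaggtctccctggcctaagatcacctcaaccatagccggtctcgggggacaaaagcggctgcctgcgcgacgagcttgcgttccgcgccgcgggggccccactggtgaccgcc
The Erg window held 1 GATA match and 1 ETS match, and the Lyl1 window held 2 ETS matches. Over the 10 member windows, an ETS match was found in 5 and a GATA match in 2. Of all 32851 promoter windows of the same length, 64.1% held an ETS match and 16.6% a GATA match, so these shares lie near those of promoters in general. RUNX and E-box matches were found in 0 of the 10 windows, against 18.6% and 25.5% of all windows. Enhancers were not analysed here.

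The deposited values tie the arrays of a pair to each other. When the control and NPMc+ values of a pair were averaged, pairs 1, 2 and 3 gave equal averages within 0.001 log2 units in all 41345 probe sets. The 6 values of a gene therefore hold only 3 independent differences, 1 per pair. A gene with a high control value in 1 pair has a low NPMc+ value in that pair by construction, and the standard deviation (SD) over 3 arrays is the same in both groups. For the same reason, groups that do not overlap are the same thing as 1 sign in all 3 pairs. An exact sign-flip test over 3 pairs cannot go below a two-sided p of 0.25, so p-values come from limma, fitted on all genes with the pair as a block.

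The 7 heptad genes had higher mean signals in NPMc+ than in control, by 0.29 to 1.04 log2 units. The largest differences were those of Gata2 and Erg, followed by Lyl1 and Fli1, and for these 4 the limma p before adjustment was under 0.05. Over all genes tested, 5.95% were higher by that rule, and 54.9% had a positive difference. Of the 7 genes, 5 were higher in 3 of 3 pairs, against 17.4% of all genes tested. The heptad median was 0.51 log2 units, beside a median of 0.03 over all genes. None of the 7 passed after Benjamini-Hochberg adjustment over all genes (limma adjusted p 0.340 to 0.875), and in this fit 0 of 16635 genes passed (0%), although 1492 had an unadjusted p under 0.05; without pair 2 or pair 3, 3 or 24 genes passed, none of the 7 among them. In limma without the block, 3 of the 7 passed, Erg, Lyl1 and Fli1 (adjusted p 0.0193, 0.0420 and 0.0492), but that fit counts more degrees of freedom than the 3 differences hold. Without pair 2 the number at an unadjusted p under 0.05 was 2 in place of 4. In bulk RNA of sorted cells, a larger share of cells that express a gene and more RNA per cell cannot be told apart.

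**Figure D1:**
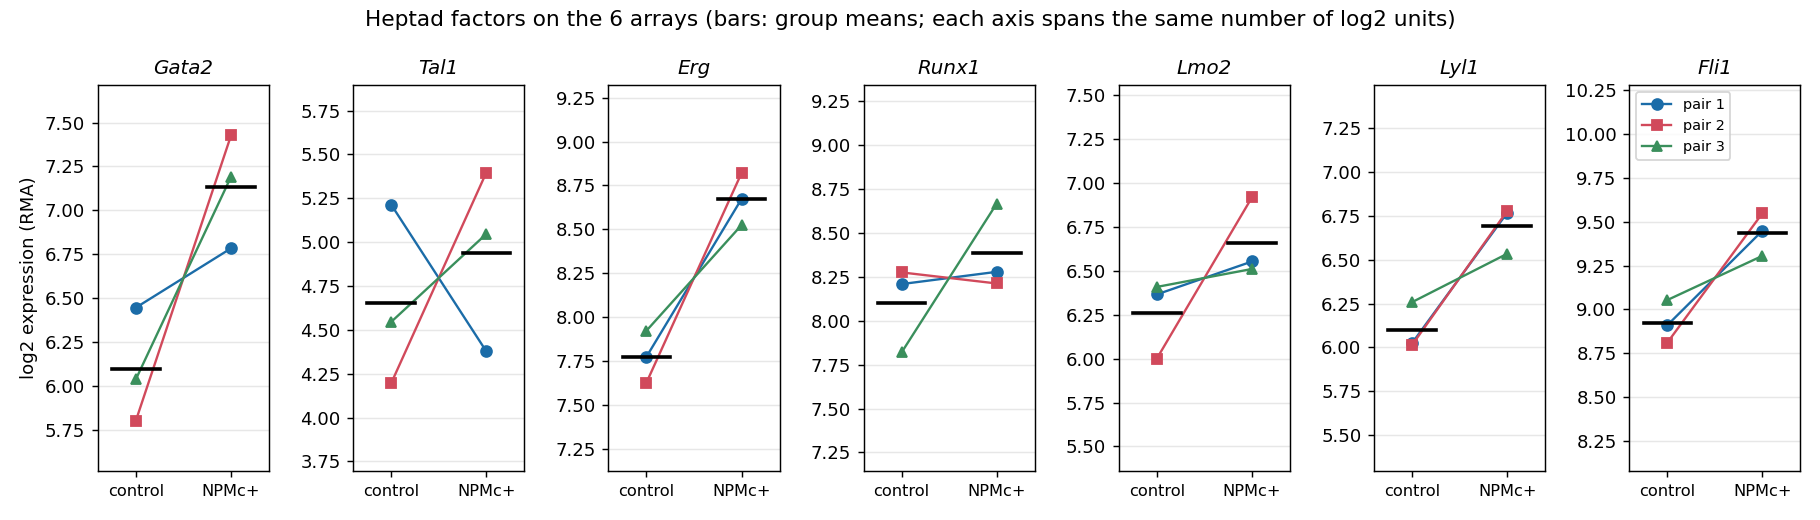
Log2 expression of the 7 heptad genes on the 6 arrays, 1 panel per gene; lines join the control and NPMc+ arrays of a pair and black bars are group means. Each panel has its own axis of equal length, since signals of different probe sets are not compared. The lines of Gata2, Erg, Lmo2, Lyl1 and Fli1 go up in all 3 pairs, whereas that of Tal1 goes down in pair 1 and that of Runx1 is almost flat in pairs 1 and 2.

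Gata2 (probe set 17460634), a factor required for the survival and expansion of blood stem cells, had the largest difference of the 7. Its log2 signal was 6.45, 5.80 and 6.04 in control arrays 1, 2 and 3, and 6.78, 7.43 and 7.19 in the NPMc+ arrays. The groups did not overlap, but the gap between the highest control and the lowest NPMc+ array was small, both being arrays of pair 1. The group means were 6.09 and 7.13 (SD 0.33, n = 3), a 2.05-fold higher signal in NPMc+. In limma the difference was 1.04 ± 0.27 log2 units (SE; 95% interval 0.39 to 1.69), with a limma adjusted p of 0.410. Only 0.577% of the genes tested had a larger positive difference. For Erg, Lyl1 and Fli1 this share was 1.03%, 4.51% and 6.98%. For Lmo2, Tal1 and Runx1 it was 11.6%, 19.2% and 19.5%. The differences within pairs were uneven, at 0.34, 1.63 and 1.15 in pairs 1, 2 and 3.

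Erg (17332358), an ETS factor needed to maintain stem cells, had the smallest p-value of the 7. Its signals were 7.77, 7.62 and 7.92 in control and 8.67, 8.82 and 8.52 in NPMc+. Every NPMc+ array lay clearly above every control array. The difference was 0.90 ± 0.20 log2 units (SE; 95% interval 0.43 to 1.37), or 1.86-fold, with a limma adjusted p of 0.340. Within pairs it was 0.90, 1.20 and 0.60.

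Fli1 (17525310), the ETS factor most like Erg, which is also needed to form platelets, had smaller differences of the same sign. Control arrays had 8.91, 8.81 and 9.05 and NPMc+ arrays 9.45, 9.55 and 9.31. The groups did not overlap, and the 3 differences of 0.54, 0.74 and 0.25 kept the order of those of Erg. The difference was 0.51 ± 0.19 log2 units (SE; 95% interval 0.05 to 0.97), or 1.42-fold, with a limma adjusted p of 0.515. Without pair 1 or without pair 2 the difference was 0.50 or 0.40 (limma adjusted p 0.680 and 0.773), and its unadjusted p was no longer under 0.05. The difference of Erg exceeded that of Fli1 by 0.36, 0.46 and 0.35 in the 3 pairs, a mean of 0.39 ± 0.03 (SE over pairs, n = 3). This was the least variable of the 21 gaps between members, of which 7 had 1 sign in all pairs.

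Lyl1 (17503208), a basic helix-loop-helix factor of stem cells and lymphoid progenitors, had 6.02, 6.01 and 6.26 in control and 6.77, 6.78 and 6.53 in NPMc+. The groups did not overlap. The difference was 0.59 ± 0.19 log2 units (SE; 95% interval 0.13 to 1.06), or 1.51-fold, with a limma adjusted p of 0.471. Pairs 1 and 2 gave 0.74 and 0.76, and pair 3 gave 0.28. Without pair 1 or without pair 2 it was 0.52 or 0.51 (limma adjusted p 0.660 and 0.739), and the unadjusted p was no longer under 0.05.

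Tal1 (17417138), the relative of Lyl1 that specifies blood stem cells in the embryo and later drives erythroid and megakaryocyte genes, had differences of both signs. Its signals were 5.21, 4.20 and 4.55 in control and 4.38, 5.40 and 5.05 in NPMc+. The groups overlapped throughout, since NPMc+ was below control in pair 1 and above it in pairs 2 and 3. The differences of -0.84, 1.20 and 0.50 gave a mean of 0.29 ± 0.37 log2 units (SE; 95% interval -0.61 to 1.18; limma adjusted p = 0.875). Without pair 2 the mean turned to -0.17, and without pair 1 it was 0.85 (limma adjusted p = 0.593), then with an unadjusted p under 0.05. The interval includes the difference of Lyl1 as well as negative values, so the data do not settle a direction for Tal1.

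Lmo2 (17373781), the bridging LIM protein, had 6.37, 6.0 and 6.41 in control and 6.55, 6.92 and 6.51 in NPMc+. The groups did not overlap, but arrays of pairs 1 and 3 lay close together. The differences were 0.19, 0.92 and 0.10, with a mean of 0.40 ± 0.22 log2 units (SE; 95% interval -0.14 to 0.94; limma adjusted p = 0.661). Pair 2 carried most of this mean, which was 0.14 without it.

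Runx1 (17332236), which is needed for blood stem cells to arise and is often mutated in leukaemia, had 8.21, 8.28 and 7.82 in control and 8.28, 8.21 and 8.67 in NPMc+. The groups overlapped, and only pair 3 showed a clear difference. The differences were 0.07, -0.06 and 0.85, with a mean of 0.29 ± 0.23 log2 units (SE; 95% interval -0.28 to 0.85; limma adjusted p = 0.786). Without pair 3 the mean was 0.0034, without pair 1 it was 0.39 and without pair 2 it was 0.46.

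**Figure D2:**
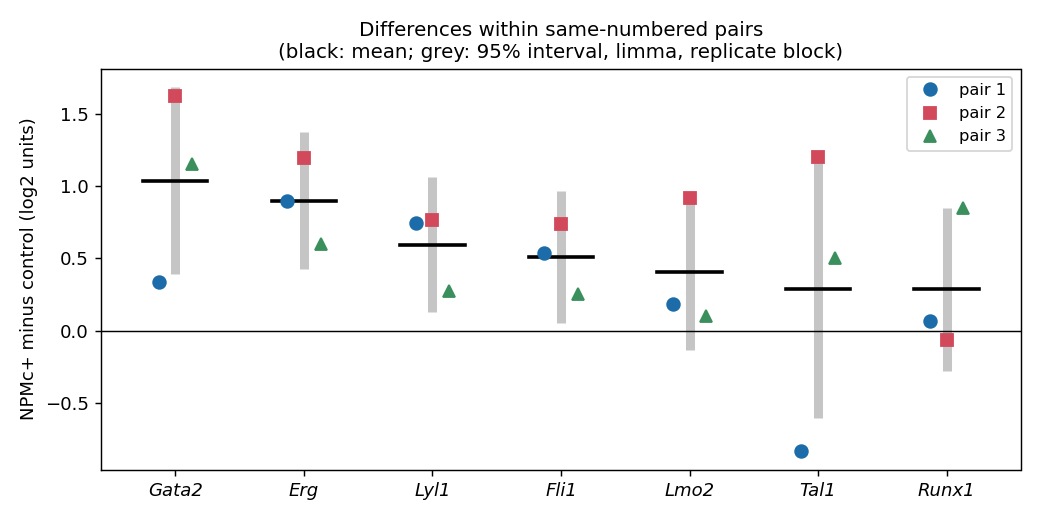
NPMc+ minus control in log2 units for the 7 genes, ordered by mean; symbols are the 3 pairs, black bars the means and grey bars the 95% intervals of the limma fit. The intervals of Gata2, Erg, Lyl1 and Fli1 lie above 0, and those of Lmo2, Tal1 and Runx1 include it.

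The order of the factors differed between pairs. In pair 1, 6 of the 7 genes were higher in NPMc+, led by Erg, and Tal1 was lower, with a median of 0.34. In pair 2, 6 were higher, led by Gata2, and Runx1 differed by -0.06; the median was 0.92. In pair 3 all 7 were higher, between 0.10 for Lmo2 and 1.15 for Gata2, with a median of 0.50. Over all genes tested, 50.4%, 54.5% and 53% were higher in pairs 1, 2 and 3. The differences of Fli1 were the least spread over the pairs (SE over pairs 0.14) and those of Tal1 the most spread (0.60).

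The genes with the most similar pair differences were found by the Euclidean distance over the 3 differences, among 14378 other genes. With only 3 values per gene, many genes lie close to any pattern. For Gata2 the 2 nearest were Igfbp4 and Mfsd13a, at 0.137 and 0.145 log2 units, and 36 genes lay within 0.5. For Erg they were Tshz3 and Lrrc61 (0.129 and 0.146; 94 genes within 0.5), and for Lyl1 Prss57 and Tnfrsf21 (0.0304 and 0.0712; 405 genes). Fli1 was nearest to Dtx4 and Sp110, Lmo2 to Ccdc43 and H13, Runx1 to Comp and Prss52 and Tal1 to Rpl34 and Ttf1, with 823, 1108, 906 and 65 genes within 0.5.

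Cofactors that work with the heptad had more positive than negative differences, and 2 passed the test before adjustment. The list holds 18 genes, all tested, of which 2 were higher and 0 lower at a limma p under 0.05 before adjustment, where 5.95% and 3.02% of all genes tested were; the list's median was 0.15 log2 units. Of the 18, 13 had a positive difference and 7 were higher in 3 of 3 pairs, beside 54.9% and 17.4% of all genes tested. The 2 were Cbfa2t3, a corepressor found in Tal1 complexes (0.71 ± 0.22, SE; limma adjusted p = 0.465; 0.20, 0.91 and 1.03 in the pairs), and Ssbp4, of the family that stabilises Ldb1 (0.80 ± 0.30; adjusted p = 0.514; 0.51, 1.66 and 0.24). Without pair 1 there was 1 such gene, and without pair 2 there were 0. A count of 2 is too small to set apart from the share over all genes. Ldb1, the scaffold that joins Lmo2 to its partners, differed by -0.02 ± 0.24 log2 units (SE), and the E protein genes Tcf3 and Tcf12 by 0.01 and -0.12. Cbfb, the partner of Runx1, differed by 0.42 ± 0.22 (limma adjusted p = 0.628), with 0.82, 0.44 and 0.02 in the pairs. After adjustment over all genes, 0 of the 18 passed in limma.

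Close relatives of the 7 factors went both ways. Of 19 listed, 14 were tested, 3 fell below the filter on low signal and 2 had no probe set of their own. By the same rule, 2 were higher and 2 lower (background 5.95% and 3.02%), and the median was -0.10 log2 units. Runx3, a relative of Runx1 known from lymphocytes, was 1.67-fold higher (0.74 ± 0.22 log2 units, SE; limma adjusted p = 0.453; 0.42, 1.23 and 0.57 in the pairs). Etv6, an ETS factor needed by adult stem cells, was 1.65-fold higher (0.72 ± 0.19; adjusted p = 0.410; 0.91, 0.77 and 0.49). Ets2 was 1.67-fold lower (-0.74 ± 0.19; limma adjusted p = 0.410; -1.05, -0.60 and -0.57) and Tal2, a relative of Tal1, differed by -0.64 ± 0.21 (adjusted p = 0.471). The group means of Tal2, 3.69 and 3.05, lay below every array's median signal, so no fold is given for it, and it was not among the genes tested with the filter at the 50th percentile. Without pair 1, 1 relative was higher and 0 lower, and without pair 2, 1 was higher and 2 lower. These counts are too small to set apart from the background shares. None of the 14 passed after adjustment over all genes in limma. Gata1, which replaces Gata2 on shared sites during erythroid and megakaryocyte maturation, differed by -0.49 ± 0.32 (limma adjusted p = 0.720), with -1.33, 0.34 and -0.47 in the pairs. In pair 1, in which Tal1 was lower in NPMc+, Gata1 was lower too; in pair 3 Tal1 was higher and Gata1 lower.

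Erg lies beside Ets2 in the genome and Fli1 beside Ets1, by the gene order of the RefSeq table. Within each of these couples the members of the heptad had the higher differences. Erg was higher by 0.90, 1.20 and 0.60 in the pairs in which Ets2 was lower by the values given above. Fli1 was higher in all pairs, and Ets1 differed by -0.20, -0.38 and 0.08 (mean -0.17 ± 0.19, SE; limma adjusted p = 0.853). Of the other neighbours, Pdzk1ip1 beside Tal1 differed by 0.44 ± 0.19 (limma adjusted p = 0.568) and Rpn1 beside Gata2 by 0.47 ± 0.22 (adjusted p = 0.603). Setd4 beside Runx1 differed by -0.01 and Caprin1 beside Lmo2 by -0.05.

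Genes with a promoter or enhancer known to be bound by at least 1 heptad factor had more positive than negative differences, 17 of 22 (54.9% of all genes tested were positive). Of 24 listed, 22 were tested and 2 had no probe set of their own. The list was chosen with earlier results of these data known, and binding was not measured here. Its counts therefore describe the list and are not a test of the heptad. In limma, 7 of the 22 were higher and 1 lower before adjustment, again at 0.05, where 5.95% and 3.02% of all genes tested were. The median was 0.32 log2 units, and 10 of 22 were higher in 3 of 3 pairs (17.4% of all genes tested). The 7 were Itga2b and Gp9, which encode platelet receptor chains, the platelet chemokine gene Pf4, the stem cell factors Mecom and Meis1, the progenitor surface gene Cd34 and Kit, the receptor of stem cell factor. Itga2b had the smallest p of them, with differences of 1.55, 1.16 and 1.28 in the pairs (1.33 ± 0.18, SE; limma adjusted p = 0.245). Mecom differed by 0.41, 1.73 and 1.85, Cd34 by 0.96, 1.24 and 0.37 and Pf4 by 1.29, 0.01 and 2.14. By the same rule, the number of genes higher was 5 without pair 2 and 5 without pair 3.

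Bound genes of the erythroid and myeloid lineages had differences of both signs. Klf1, the erythroid factor, was 1.65-fold lower (-0.72 ± 0.22 log2 units, SE; limma adjusted p = 0.453; -0.94, -0.25 and -0.98 in the pairs); without pair 1 the number of bound genes lower by the rule above was 0. Csf1r, the receptor of macrophage colony-stimulating factor, differed by -0.42 ± 0.18 (limma adjusted p = 0.568), with -0.53, -0.50 and -0.24 in the pairs; it and Klf1 were the 2 of 22 bound genes lower in 3 of 3 pairs (12.8% of all genes tested). Epor, the erythropoietin receptor gene, differed by -0.30 ± 0.28, with -0.91, -0.46 and 0.46 in the pairs. Spi1, which encodes the myeloid factor PU.1 and is regulated by Runx1, differed by -0.00050 ± 0.20 log2 units (SE). Gfi1b and Zfpm1, regulators shared by the erythroid and megakaryocyte lineages, had the sign pattern of Tal1, with -0.65, 1.06 and 0.10 for Gfi1b and -0.41, 1.09 and 0.37 for Zfpm1. These genes were picked after their values were seen. Over all genes tested, 13.4% were lower in pair 1 and higher in pairs 2 and 3. The pattern was found in 4 of 22 bound genes, 4 of 18 cofactors, 1 of 14 relatives and 0 of 10 erythroid markers. Of those 4 bound genes, Nfe2 differed by only -0.01 in pair 1. Smad6, another of them, had group means of 3.15 and 3.16, below every array's median signal.

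**Figure D3:**
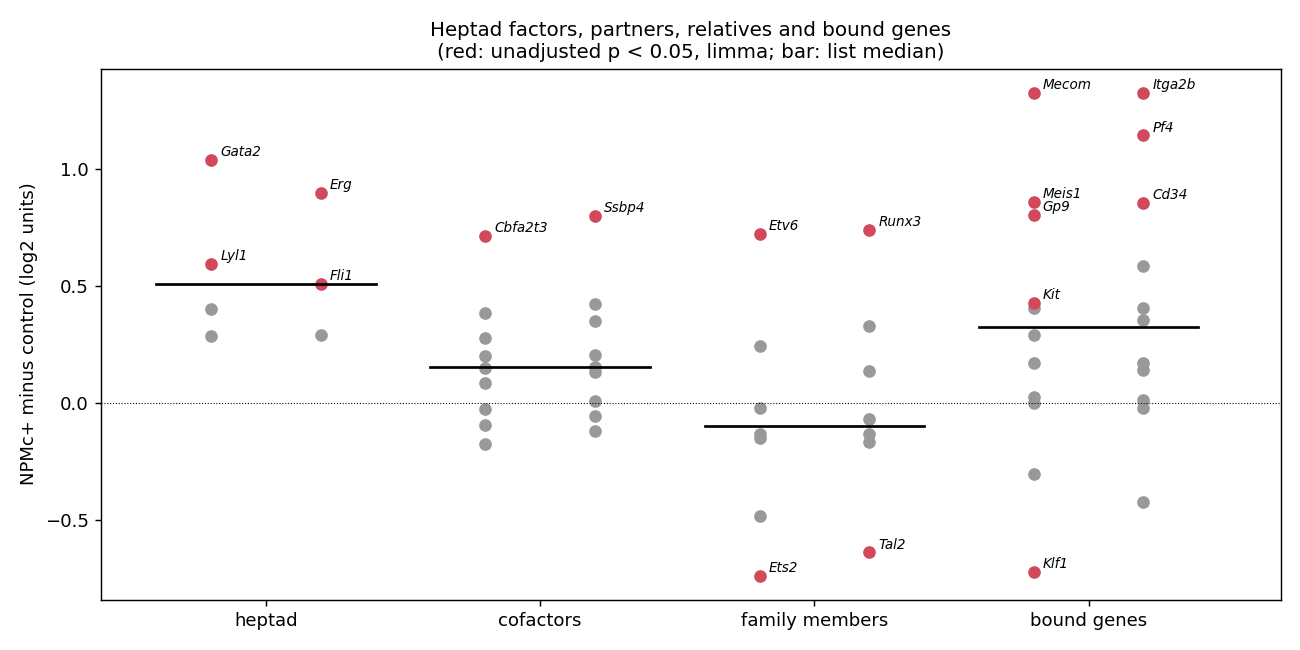
Mean difference, NPMc+ minus control in log2 units, of each gene tested in the heptad, its cofactors, its family members and the genes it binds; red points have an unadjusted limma p under 0.05 and black bars are list medians. The medians are 0.51, 0.15, -0.10 and 0.32.

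Markers of cell types differed between the groups beside the heptad. The sort was for LT-HSC, and of 12 LT-HSC markers tested, none of them heptad genes, 5 were higher and 0 lower by that rule, beside 5.95% and 3.02% of all genes tested (median 0.41); the mean log2 signal of the list was 5.45 to 5.59 in control and 5.93 to 6.07 in NPMc+. Of the 12, 10 had a positive difference (54.9% of all genes tested), and Fgd5 and Robo4 differed by -0.20 and -0.22. The endothelial protein C receptor gene Procr, a defining marker, had group means of 5.33 and 5.41. Control means of the list ran from 4.04 for Esam to 8.94 for Kit. Those of Esam and Fgd5 (4.05) were near the array medians of 3.90 to 3.99. With no background measurement in the files, no marker is called absent. The lists are not separate from the bound genes: of those 5, Mecom, Kit and Meis1 were already counted there, as were Itga2b, Pf4 and Gp9 of the megakaryocyte markers and Klf1 of the erythroid ones. Megakaryocyte markers, in a lineage that also uses Gata2, Tal1, Fli1 and Runx1, had 7 of 11 higher and 1 lower (median 0.79; list means 4.93 to 5.14 in control and 5.52 to 5.73 in NPMc+). Of 10 erythroid markers, 7 were lower and 0 higher (median -0.76; 5.87 to 6.32 and 5.22 to 5.67).

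Of 10 B cell markers, 7 were lower and 0 higher, where 3.02% and 5.95% of all genes tested were (median -1.32; list means 5.98 to 6.0 in control and 4.72 to 4.74 in NPMc+). Of 13 neutrophil markers, 8 were lower and 0 higher (median -0.96; 10.04 to 10.77 and 9.29 to 10.02), and of 9 T and NK cell markers, 5 were lower and 1 higher (median -1.27; 5.51 to 5.84 and 4.55 to 4.88). Mast cell and basophil markers, whose lineage has high Gata2, had 0 of 7 higher and 1 lower (median -0.07; 6.06 to 6.61 and 6.09 to 6.64). The median of this list changed sign between pairs, at 0.62, -0.13 and -0.82 in pairs 1, 2 and 3. Endothelial markers, whose lineage has Erg and Fli1, had 1 of 11 higher, Pecam1, and 1 lower, Emcn (median 0.24; 4.28 to 4.36 and 4.38 to 4.46). In the mast cell and endothelial lists at most 1 gene passed in either direction, too few to set apart from those shares. The endothelial cadherin gene Cdh5 differed by -0.02 ± 0.18 (SE). The neutrophil list had medians of -1.70 and -1.14 in pairs 1 and 2 and of -0.01 in pair 3, where the heptad median was 0.50. By the list means above, neutrophil genes gave strong signals in both groups, and the purity of the sorted cells was not tested. The part of the other cell types in the heptad differences was not tested.

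**Figure D4:**
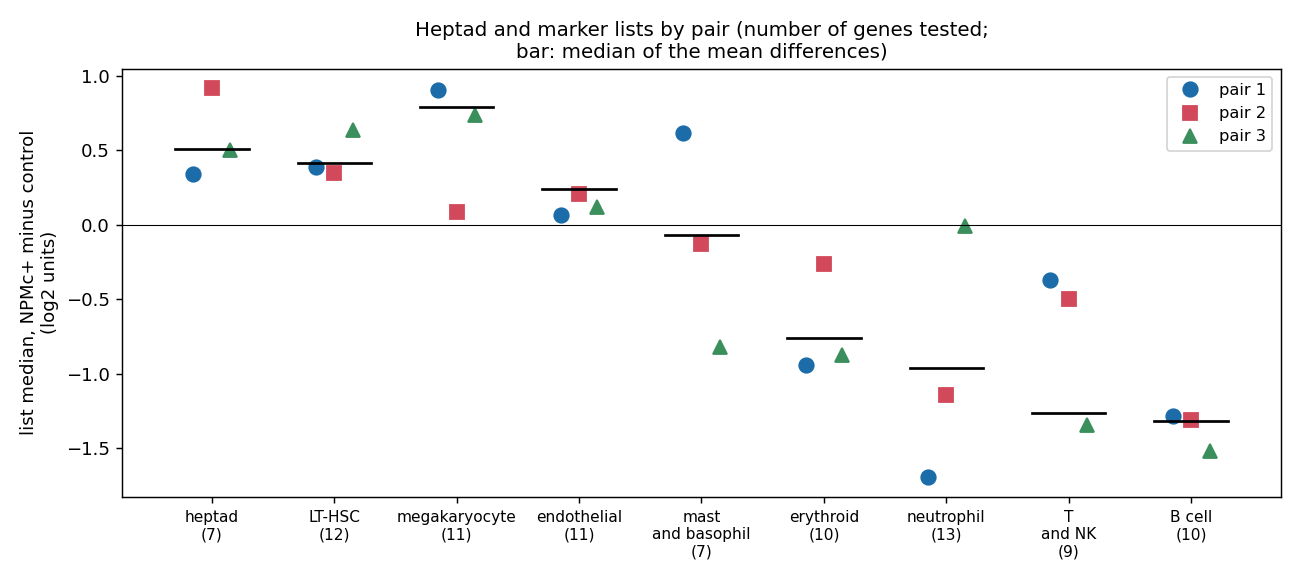
Median difference, NPMc+ minus control in log2 units, of the heptad and 8 marker lists in each pair (symbols), with the number of genes tested under each name; bars are the medians of the mean differences. The heptad, LT-HSC, megakaryocyte and endothelial medians are above 0 in all pairs, and the erythroid, neutrophil, T and NK and B cell medians are below 0.

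Of facts that concern all genes, array medians lay between 3.90 and 3.99 log2 units. Npm1 differed by -0.03, -0.30 and -0.24 in the pairs, and whether its probe set reads the mutant is not given, so it does not check the labels. The pools differed most clearly in sex-linked transcripts in pairs 1 and 2, and in pair 3 the Y-linked genes did not share 1 sign. The X-linked Xist differed by -5.44, -5.39 and 0.48 in pairs 1, 2 and 3. The Y-linked Eif2s3y differed by 5.49, 0.36 and -0.79, Kdm5d by 3.48, 1.29 and -0.67 and Uty by 4.68, 0.93 and 0.35. The part of this imbalance in the heptad differences was not tested.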

How the data were processed

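The authors deposited log2 expression values for 41345 probe sets on 6 arrays. Per the submitters' processing notes they were made with RMA (background correction, normalization between arrays, probe summary); no source used here gives its version or the step that set the pair means equal. Of the probe sets, 23521 had 1 gene symbol, 1814 several and 16010 none; 23328 were matched by gene identifier to RefSeq names, and 0 changed. Each gene was represented by its probe set with the highest mean, and genes below the 25th percentile of means were left out (16635 tested; lowest mean 3.01).

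NPMc+ minus control was tested with limma 3.58.1 in R 4.3.3 (two-sided, data.table package, version 1.17.8), with the replicate number as a block (2 residual and 4.537 prior degrees of freedom) and Benjamini-Hochberg adjustment over all genes. The block was used because pair means were equal in 100% of probe sets (largest range 6.5e-05 log2 units). The number of arrays limits the precision. The p-values set the mean of the 3 differences within pairs against the spread of those differences, together with a variance prior from all genes. The fit was also run on simulated data with independent noise in each gene. That setting lacks the sex and cell type differences between these pools, so it cannot show how the p-values behave in these data. The members and lists were chosen with earlier results of these data known. The text names the members, the 2 nearest genes of each, and the cofactors, relatives and bound genes with an unadjusted limma p under 0.05. Some well-known others are named too. Many marker genes that passed this rule are counted without being named. Alternatives changed the block, normalization, filter, variance prior, probe set rule and pairs. Figures and motif searches used Python 3.11.15, pandas 2.3.3 and matplotlib 3.10.9.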

Additional observations from a re-analysis of the deposited data

How the results depend on the processing

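The 7 heptad differences kept their sign under every alternative listed, except that of Tal1, which was -0.17 log2 units without replicate 2. Without replicate 1 Tal1 kept its sign, at 0.85. Leaving out each replicate pair in turn, the number of heptad genes higher at an unadjusted limma p under 0.05 ranged from 2 to 4, cofactors higher from 0 to 2, relatives higher from 1 to 2 and lower from 0 to 2, bound genes lower from 0 to 1, and genes past the adjusted threshold from 0 to 24; the heptad median ranged from 0.46 to 0.64. Leaving out a pair leaves fewer arrays. Without the replicate block, limma gave 6 cofactors higher, 11 bound genes higher and 2 lower, and 828 genes past the adjusted threshold, as that fit counts more degrees of freedom than the paired values hold; it also put Lmo2 past an unadjusted 0.05 (adjusted p = 0.194) and changed no other heptad gene's side of that threshold. Bound genes lower were 2 after quantile normalization and 2 without the filter on dim genes, and relatives lower were 1 with the filter at the 50th percentile, where fewer genes were tested; the cause of the first was not tested. The heptad count stayed at 4 with array centring, quantile normalization, both other filters, an intensity trend and the mean of all probe sets. No group of 3 is large enough for a check of single outlying arrays.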
